A study of Homo sapiens with 8 samples.

Results

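Unannotated intronic poly(A) sites were taken from a list of poly(A) 3′-sequencing peaks by position and sequence alone. A peak counted as a site when it lay within a protein-coding gene, with no coding gene on the other strand, outside every GENCODE exon, and outside the window from 200 bp before to 600 bp after any annotated transcript end. It also had to carry AATAAA or ATTAAA in the 50 bases before its 3′ end on the strand of the gene, and no run of 6 A and no 10 bases with 7 A in the next 50 bases. This rule left 7435 sites in 4140 genes, out of 153624 peaks in the list. The level of a peak played no part in the choice.

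The list comes from Kelly, a human cell line of neuroblastoma in which MYCN is amplified, and from Kelly E9R, a derivative of it selected under rising doses of the inhibitor E9, which carries CDK12 mutated at the cysteine to which THZ531 attaches. THZ531 inhibits the transcriptional kinases CDK12 and CDK13. Each line received DMSO or, per the labels, 400 nM THZ531 for 6 h (the methods of the study give a lower concentration), with 2 libraries in each of the 4 groups. Peaks were called on the merged reads of all 8 libraries, so that no value has a replicate, THZ531 cannot be compared with DMSO, and a site used in 1 group alone cannot be told from a site used in all of them. As a check of the cells, all 9 adrenergic neuroblastoma markers examined had a peak at an annotated end, with pileups from 39 (TH) to 121 (PHOX2A). Of 6 markers of other cell types, PTPRC, COL1A2 and PECAM1 had none, whereas CD68 reached 21, COL1A1 16 and EPCAM 6.

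Most transcripts of RNA polymerase II end where the cleavage and polyadenylation specificity factor (CPSF) binds the hexamer AAUAAA and cuts the RNA a short way downstream. A U-rich or GU-rich element after the cut, bound by the cleavage stimulation factor (CstF), and UGUA elements before it, bound by cleavage factor Im (CFIm), strengthen a site. Introns hold many such hexamers, which U1 snRNP normally keeps silent, and cleavage at an intronic site yields a shortened transcript.

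Sequences of 11 sites show what the rule selects, namely strong sites, sites in genes on which the study centres, and sites in neuroblastoma and cleavage factor genes. Each sequence is the GRCh38 reference from 60 bases before to 40 bases after the 3′ end of the peak, read 5′ to 3′ along the gene, and the capitals mark the hexamer nearest to that end (AATAAA where both forms were present).

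DBH, chr9:133646181-133646280, forward strand: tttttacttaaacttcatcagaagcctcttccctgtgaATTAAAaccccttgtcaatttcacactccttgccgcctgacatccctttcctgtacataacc

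FBXL18, chr7:5494430-5494529, reverse strand: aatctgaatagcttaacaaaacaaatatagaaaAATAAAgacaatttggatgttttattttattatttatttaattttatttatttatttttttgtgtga

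LSAMP, chr3:116644181-116644280, reverse strand: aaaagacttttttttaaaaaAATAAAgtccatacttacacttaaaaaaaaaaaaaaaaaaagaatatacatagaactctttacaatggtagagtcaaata

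ZNF736, chr7:64346246-64346345, forward strand: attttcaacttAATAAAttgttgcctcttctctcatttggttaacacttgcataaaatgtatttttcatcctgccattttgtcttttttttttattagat

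WDR33, chr2:127785077-127785176, reverse strand: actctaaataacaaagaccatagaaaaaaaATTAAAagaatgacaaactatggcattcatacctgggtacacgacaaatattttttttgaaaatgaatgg

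PCF11, chr11:83159847-83159946, forward strand: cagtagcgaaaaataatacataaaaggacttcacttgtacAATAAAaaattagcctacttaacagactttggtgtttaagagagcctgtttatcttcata

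CDK13, chr7:39969863-39969962, forward strand: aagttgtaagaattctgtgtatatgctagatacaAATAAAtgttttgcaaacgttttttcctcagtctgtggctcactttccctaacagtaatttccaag

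BRCA1, chr17:43158611-43158710, reverse strand: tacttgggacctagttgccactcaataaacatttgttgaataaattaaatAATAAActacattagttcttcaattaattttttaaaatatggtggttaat

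ATM, chr11:108269311-108269410, forward strand: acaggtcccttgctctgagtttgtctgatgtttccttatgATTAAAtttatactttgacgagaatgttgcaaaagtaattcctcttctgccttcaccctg

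RET, chr10:43109756-43109855, forward strand: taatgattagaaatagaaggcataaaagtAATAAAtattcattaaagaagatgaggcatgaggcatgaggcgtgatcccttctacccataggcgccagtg

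ALK, chr2:29438437-29438536, reverse strand: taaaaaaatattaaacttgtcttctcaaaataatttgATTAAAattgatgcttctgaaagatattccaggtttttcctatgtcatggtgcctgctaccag

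In DBH the hexamer was ATTAAA and began 22 bases before the end of the peak. In FBXL18 an AATAAA at 27 bases was followed by long T runs and a TGTGT after the end. In LSAMP the AATAAA began 40 bases before the end, and an unbroken run of A reached the end itself, which the rule allowed because it read only the bases after the end. A-rich sequence that began within the last 10 bases before the end was present at 1030 of the 7435 sites (13.9%, 95% Wilson interval 13.1 to 14.7) and at 9.03% (8.53 to 9.56) of annotated-end peaks chosen by the same sequence rule. Of the sites printed above, LSAMP was the only one that had it, and runs of A further before the end were not counted. Wilson intervals on shares, here and below, cover counting error only.

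Of 79383 peaks in introns and outside the end windows, 21.5% had the hexamer on the gene strand and 6.36% on the opposite strand, measured in mirror-image windows at the other edge of the same peak. A-rich sequence after the end was found at 82.0% on the gene strand and 18.1% on the opposite strand. Both shares were thus higher on the gene strand. The whole rule was met by 9.37% (9.17 to 9.57) of these peaks on the gene strand and by 3.97% on the opposite strand, which is 3152 peaks, of which 503 met it on both strands. The remaining intronic peaks comprised 9620 with hexamer and A-rich sequence, 55494 with A-rich sequence alone and 6834 with neither.

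The position of the hexamer, which the rule left free within 50 bases, was narrow at the sites. The first base of the hexamer lay 10 to 30 bases before the 3′ end at 6287 of 7435 sites (84.6%, 83.7 to 85.4), and the commonest position was 23 bases (661 sites, 8.89%). The median was 23 bases, with quartiles of 20 and 27. At 11817 annotated-end peaks that met the same sequence rule, the share within 10 to 30 bases was 77.6% (76.8 to 78.3) and the median 25. On the opposite strand the share was 53.6% (51.8 to 55.3), with positions spread over the whole window and an excess in the middle. There 16.1% lay at 21 to 25 bases, against 9.36% at 6 to 10 and 9.84% at 46 to 50. Intronic peaks with both hexamer and A-rich sequence had 52.6% within 10 to 30 bases, and a further 25.7% with the hexamer directly at the end, 6 to 9 bases before it, against 2.37% of the sites.

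**Figure D1:**
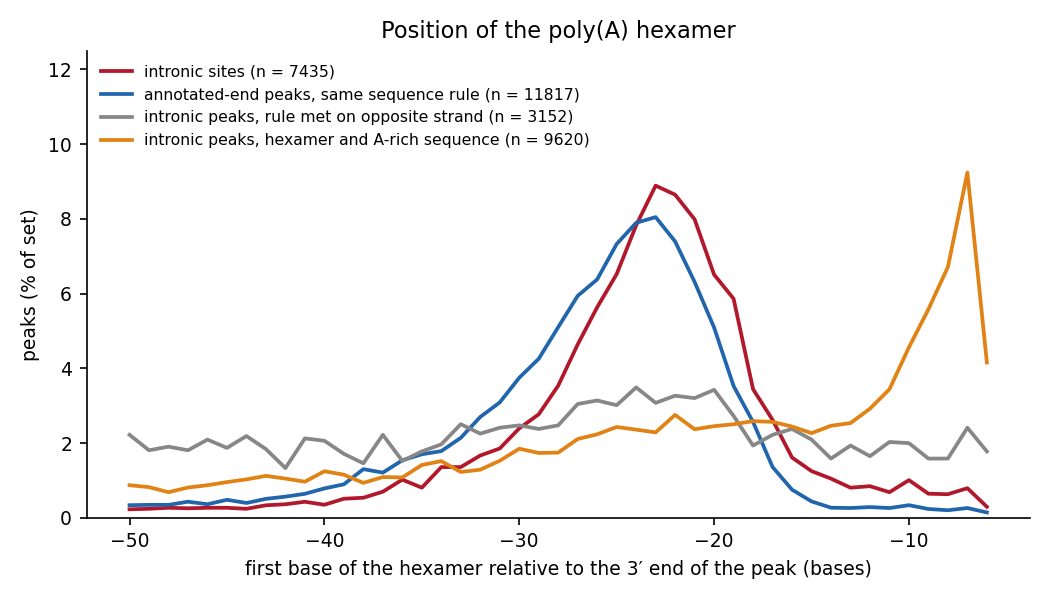
Share of peaks (y axis, % of each set) by the distance of the first base of the hexamer from the 3′ end of the peak (x axis, bases), in 7435 intronic sites, 11817 annotated-end peaks under the same sequence rule, 3152 intronic peaks that met the rule on the opposite strand and 9620 intronic peaks with hexamer and A-rich sequence. Sites and annotated ends each form a single hump with its top at 23 bases. The opposite strand is low over the whole window with a rise near the middle. The A-rich set rises towards the end of the peak.

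The hexamer moved outward with the level of a peak, in the sites and at annotated ends alike. The level used here is the pileup, the number of reads, each extended to 100 bp, that cover the summit. At sites with a pileup of 3 to 9 the hexamer lay within 10 to 30 bases in 88.8% (87.8 to 89.7), at 10 to 19 in 81.5%, at 20 to 29 in 64.5% and at 30 or more in 58.2% (45.03 to 70.26) of 55 sites. Annotated ends gave 92.9%, 85.6%, 66.3% and 53.6% in the same classes. The median width of the peaks rose over the same classes, from 101 to 151 bp at sites and from 102 to 180 bp at annotated ends, and its part in the shift was not tested. At equal pileup the shares at sites lay below those at annotated ends in the lower 2 classes, with intervals that do not overlap, and the intervals overlapped in the upper 2. On the opposite strand the share stayed between 40% and 55.4% in every class.

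AATAAA was the hexamer at 78.3% (77.4 to 79.3) of sites and at 77.9% (77.2 to 78.7) of annotated ends. The remaining 1611 sites had ATTAAA alone, with the same median pileup of 9 and the same median position of 23 bases. Opposite-strand matches had AATAAA less often, at 65.2% (63.5 to 66.8).

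Downstream elements, which the rule did not ask for, were present at sites about as often as at annotated ends. The rule did read the same 50 bases, from which it barred A-rich sequence, so that these shares are set beside peaks under the same bar. In the 50 bases after the 3′ end, TTTTT was found at 28.03% (27.02 to 29.06) of sites and at 25.4% (24.6 to 26.2) of annotated ends. TGTGT or GTGTG was found at 17.1% (16.3 to 18.0) of sites and at 20.3% (19.5 to 21.0) of annotated ends. The T-rich form was thus somewhat commoner, and the GT-rich form somewhat rarer, at intronic sites. Either form was present at 40.9% (39.8 to 42.0) of sites and 41.3% (40.4 to 42.2) of annotated ends, intervals that overlap. The share was 21.2% (19.8 to 22.6) on the opposite strand under the same rule and 27.3% (26.3 to 28.4) at intronic peaks with neither hexamer nor A-rich sequence. Peaks with hexamer and A-rich sequence had 15.7%, but they were chosen for A in these very bases, which lowers their share by construction. It varied little with the level of the sites, from 37.9% to 43.6% over the 4 classes of pileup.

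TGTA, the core of the CFIm element, occurred in the 100 bases before the 3′ end of 53.7% (52.6 to 54.9) of sites and 53.9% (53.0 to 54.8) of annotated ends. It occurred at 39.9% on the opposite strand and at 40.9% of peaks with hexamer and A-rich sequence. The 100 bases before the end had a median GC content of 32% at sites, at annotated ends and on the opposite strand, with an upper quartile of 37% at sites and on the opposite strand and 40% at annotated ends. A motif to which U1 snRNP can pair, searched on the gene strand as GGTGAG, as GGTAAG and as GTGAGT, was present in the 1000 bases before the end of 44.4% (43.3 to 45.5) of sites, 43.7% (42.8 to 44.6) of annotated ends, 44.03% to 47.12% of the other 3 classes of intronic peak and 38.8% of opposite-strand matches. These intervals overlap between sites and annotated ends. All 3 words of 31 bases tested per peak had a single copy in the genome at 85.6% of sites, and at 2.53% no word did. Reads from the latter could map to several places.

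**Figure D2:**
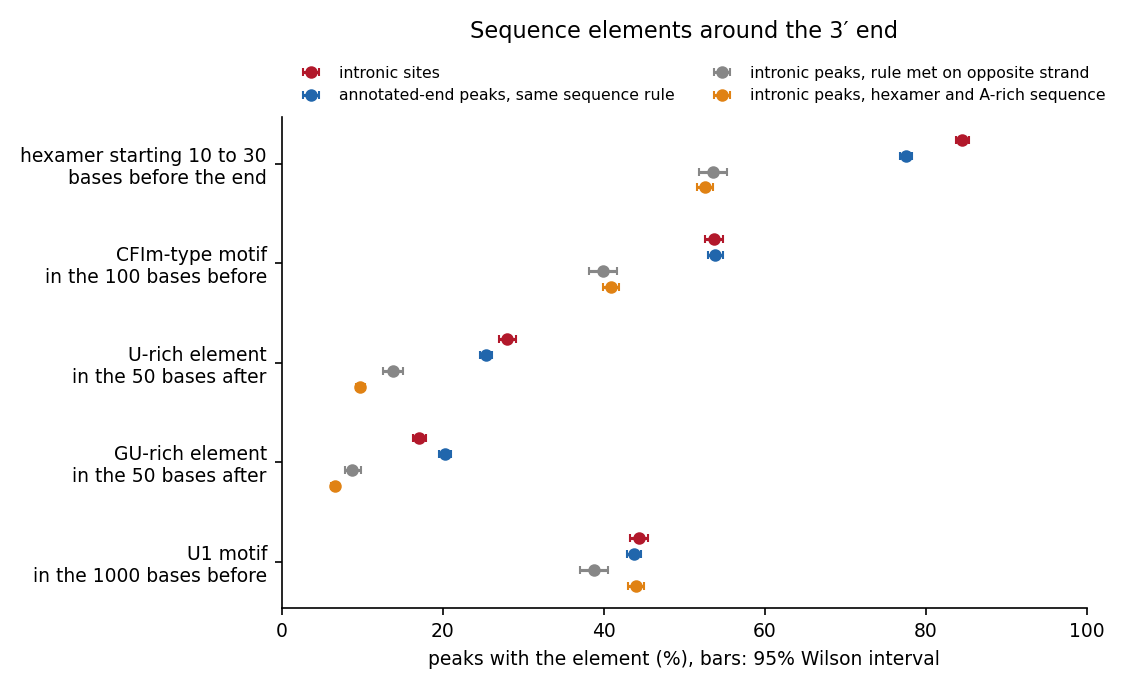
Share of peaks with each element (x axis, %; bars, 95% Wilson intervals) in intronic sites, annotated-end peaks under the same rule, opposite-strand matches and intronic peaks with hexamer and A-rich sequence; the CFIm-type motif is TGTA, the U-rich element TTTTT and the GU-rich element TGTGT or GTGTG. Sites and annotated ends lie close together for the CFIm-type motif (53.7% and 53.9%). They lie furthest apart for the hexamer starting 10 to 30 bases before the end (84.6% and 77.6%). Both lie above the opposite-strand matches for each element plotted. The A-rich set was chosen for A in the bases where the U-rich and GU-rich elements were sought.

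The sites were weaker than annotated ends. The median pileup was 9 at sites (quartiles 7 and 12, highest 56) and 17 at annotated ends under the same rule (quartiles 11 and 24, highest 81). Other intronic peaks had a median of 8 in each of the 3 classes, as did opposite-strand matches, and the bounds of these medians lay between 8 and 9. A pileup of at least 20 was reached by 5.29% of sites, 38.7% of annotated ends and 2.79% of intronic peaks with hexamer and A-rich sequence. A −log10 q of at least 5 was reached by 5505 sites, or 74.04% (73.03 to 75.03), against 73.5% of all peaks in the list, a share near the background, and by 93.2% of annotated ends. The median fold enrichment was 6.29 at sites and 8.93 at annotated ends. In bulk RNA, fewer cells that use a site and less RNA from it per cell cannot be told apart. No pileup in the list passed 200, and the handling of duplicate reads is not given in the sources used here. If duplicates were removed, the strongest peaks are understated and ratios to them overstated.

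**Figure D3:**
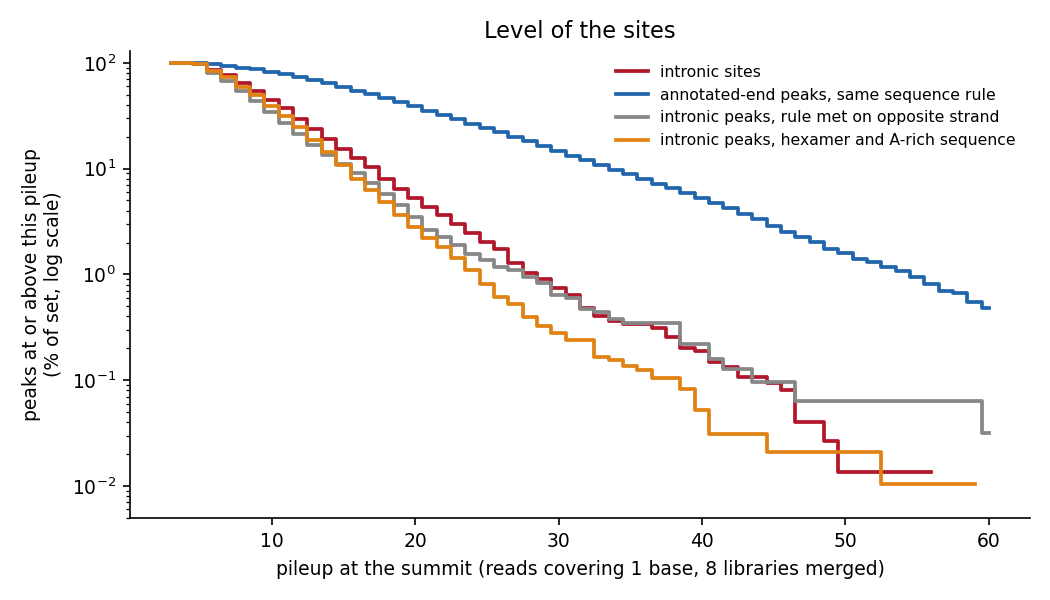
Share of peaks at or above a given pileup (y axis, %, log scale) against that pileup (x axis, reads covering the summit, 8 libraries merged) in intronic sites, annotated-end peaks, opposite-strand matches and intronic peaks with hexamer and A-rich sequence, drawn up to 60. Annotated ends fall off most slowly; 5.29% of intronic sites and 38.7% of annotated ends reach a pileup of 20.

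The rule has an edge at 50 bases from hexamer to end. The 94 sites whose hexamer began 46 to 50 bases before the end had a median pileup of 11.5, and 65 intronic peaks left out because it began at 51 to 55 bases had a median of 11. Sites with the hexamer outside 10 to 30 bases had a median of 11 (n = 1148), against 9 (n = 6287) within it. Among the sites without A-rich sequence in the last 10 bases the medians were again 11 and 9, and among those with it both were 10.

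Within genes the sites lay towards the start of introns. The median distance was 4.31 kb from the exon before a site and 10.0 kb to the next exon, in introns with a median length of 17.8 kb. Of 7239 sites that fell in an intron of the longest transcript, 33.7% (32.7 to 34.8) lay in the first 20% of the intron and 9.85% (9.18 to 10.6) in the last 20%. Peaks with hexamer and A-rich sequence had 23% (22.2 to 23.9) and 14.2% in these stretches, and peaks with A-rich sequence alone 20.1% and 16.3%. Peaks with neither had 26.3% and 15.2%. The lean towards the 5′ part of the intron was therefore steepest for the sites, with intervals that do not overlap those of the other 3 classes in either stretch. Within 1 kb after an exon lay 16.9% of sites, 8.52% of peaks with hexamer and A-rich sequence and 17.4% of peaks with neither.

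Sites were spread over the whole gene, with 25.5% (24.5 to 26.5) in its first 20% and 13.8% (13.1 to 14.6) in its last 20%. Peaks with hexamer and A-rich sequence had 23.6% and 14.6%, peaks with A-rich sequence alone 23.4% and 14.3%, and peaks with neither 23.2% and 19.6%. The rule leaves out exons and end windows, and density over the bases that remain was not computed. The first intron held 23.5% (22.5 to 24.5) of sites, against a mean of 24.9% of the intron length of these genes, and the last intron 8.91% against 10.1%. Peaks with hexamer and A-rich sequence had 26.65% in the first intron against 25.4% of length, peaks with A-rich sequence alone 28.8% against 26.2%, and peaks with neither 27.4% against 28.1%. In the main setting the sites lay below their share of length and both A-rich classes above theirs. For peaks with neither, the interval of 26.4% to 28.5% covered it. Over the alternative settings the share at sites ran from 21.6% to 25.3%, with the share of length not recomputed. The intervals also treat sites of the same gene as separate, so the small gap at the sites is not settled. Within 5 kb of the gene start lay 827 sites (11.1%). By the coding sequence of the canonical transcript, 6080 sites (81.8%) lay between coding bases, with a median of 33.5% of the coding bases before them. Another 1051 sites (14.1%) lay before any coding base and 304 (4.09%) after the last.

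**Figure D4:**
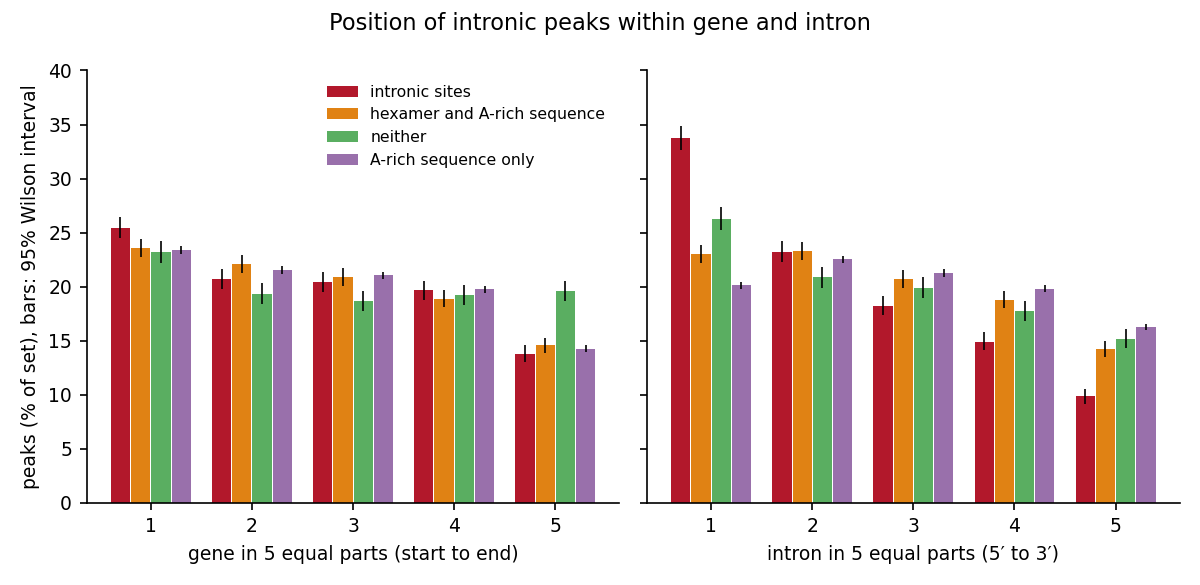
Share of intronic peaks (y axis, % of each class; bars, 95% Wilson intervals) by position in 5 equal parts of the gene (left) and of the intron (right), for the intronic sites and the 3 other classes of intronic peak. In the right panel the sites decline from 33.7% to 9.85%, more steeply than any other class.

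Each site was set beside the strongest annotated-end peak of its own gene on the same merged reads. Such a peak was present for 7158 sites, whereas 277 sites in 208 genes had none. The median site reached 39.3% (38.7 to 40) of the annotated end, with quartiles of 26.9% and 58.3%. At 529 sites (7.39%) the pileup equalled or passed that of the annotated end, and at 1411 (19.7%) it was under 25%. With genes cut into 5 equal parts, the ratio was highest in the first, at 43.8% (42.1 to 45.5), and between 36.8% and 40% in the other 4 parts, while the median pileup was 9 in each.

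Most genes with a site had a single one. Of the 4140 genes, 2391 (57.8%) had 1 site, 951 had 2, 629 had 3 or 4, and 169 had 5 or more. The share of genes with a site rose with length among genes that had an annotated-end peak, from 1.31% below 10 kb to 39.5% at 30 to 100 kb and 77.6% above 1000 kb. Per Mb of gene, sites were densest at 30 to 100 kb, with 10.5, and sparsest above 1000 kb, with 1.81, whereas other intronic peaks stayed between 48.1 and 75.9 per Mb from 10 kb upward. Sites were thus 12.6% of intronic peaks at 30 to 100 kb and 3.64% above 1000 kb. Among genes of 100 to 300 kb, 44.9% (40.7 to 49.3) of those with an annotated end below a pileup of 15 had a site, and 76.4% (66.6 to 84.02) of those at 45 or more. Among genes of 30 to 100 kb the share was 30.5% below 15 and then level, at 42.3% for 15 to 29, 41.8% for 30 to 44 and 40% at 45 or more. The part of read depth in detecting a weak site was not tested.

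Of 3295 neighbouring pairs of sites within a gene, 76 lay within 500 bp and 592 within 5 kb. This spacing was not compared with that of other intronic peaks. The median distance to the nearest other peak of any kind was 2.32 kb, and 1725 sites (23.2%) had none within 5 kb. A non-coding gene on the opposite strand covered 288 sites (3.87%), where the peaks, which carry no strand, could belong to either gene. Another coding gene of the same strand contained 308 sites (4.14%), and 71 sites lay within readthrough genes alone.

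The strongest site lay in DBH, which encodes dopamine β-hydroxylase, the enzyme that makes noradrenaline. It had a pileup of 56 in intron 5 of 11 at chr9:133646061-133646240, and the annotated end of the gene had 58. The next were FBXL18, an F-box protein gene, with 49 in intron 3 of 6, and STMN2, which encodes the microtubule regulator stathmin-2, with 48 in intron 1 of 4. The first intron of STMN2 is known for a cryptic exon with a poly(A) site that TDP-43 keeps silent; whether this peak is that site was not tested. GRIK3, a kainate receptor subunit, the readthrough gene ENSG00000283515 and EXOSC2, a subunit of the RNA exosome, had 46 each, C1orf43 had 45, and LSAMP, a neural adhesion molecule, had 44. AGAP3, a GTPase-activating protein, and DNAAF5, a dynein arm assembly factor, had 42, the nucleoporin NUP42 had 41 and RABGAP1, a Rab GTPase-activating protein, 40. These 12 sites reached 73.8% (STMN2) to 306% (FBXL18) of their annotated ends, and 7 of them passed it. At NUP42 a word of the peak had 9752 copies in the genome, and at RABGAP1 each word had 2, so that reads there could belong elsewhere. LSAMP and RABGAP1 had A-rich sequence beginning in the last 10 bases before the end. Runs of A also lay further before the end at C1orf43, GRIK3 and NUP42, in bases that were not searched, and their part was not tested. GRIK3, EXOSC2 and C1orf43 had the site in the last intron of the longest transcript, at 15 of 15, 9 of 9 and 7 of 7. At EXOSC2 and ENSG00000283515 the site lay after the last coding base of the canonical transcript.

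Sites were also ranked relative to the annotated end, among genes whose end had a pileup of at least 10. The highest was in the readthrough gene ENSG00000203546, with 34 against 10 (340%). The words of this peak had from 2 to 663 copies in the genome, so that reads there could belong elsewhere. A-rich sequence began before the end of this peak, and a non-coding gene lay on the opposite strand. The zinc finger genes ZNF730 and ZNF736 followed, each with 37 against 12 (308%), then FBXL18 with 49 against 16 (306%). CUX2, a homeobox factor of neurons, had 38 against 14 (271%). ARHGAP19-SLIT1, a readthrough gene, had 27 against 10 (270%), but the site also lies within ARHGAP19, whose strongest annotated end had 16 (169%). In these genes the pileup of the intronic site was above that of any annotated-end peak. If duplicate reads were removed, this does not show that more reads came from the site.

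**Figure D5:**
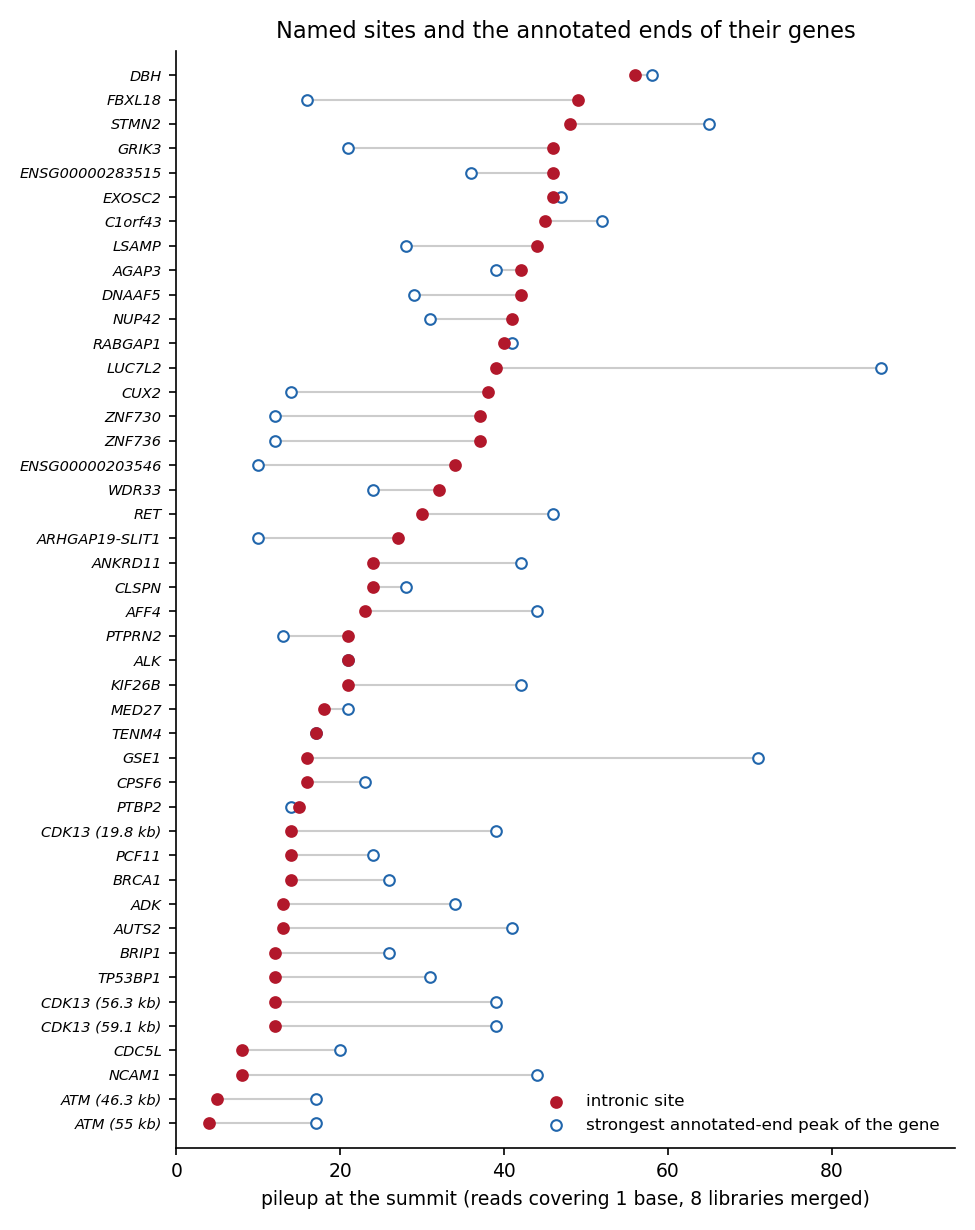
Pileup at the summit (x axis, reads, 8 libraries merged) of the named sites (filled) and of the strongest annotated-end peak of the same gene (open), joined by a line; distances in brackets separate sites of 1 gene by kb from the gene start. In ALK and TENM4 both points coincide, in FBXL18 and CUX2 the site lies far to the right of the annotated end, and in LUC7L2 and GSE1 far to the left.

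The genes with the most sites were long. PTPRN2, a secretory granule protein, had 15 sites in 1050 kb, with pileups from 5 to 21 beside an annotated end of 13. GSE1 had 15 in 507 kb, from 4 to 16, beside an end of 71. KIF26B, a kinesin family member, had 12 sites, and ALK, the receptor tyrosine kinase mutated in some neuroblastomas, MED27, a Mediator subunit, TENM4, a teneurin, and ADK, adenosine kinase, had 11 each. ANKRD11, a chromatin regulator, had 10. Sites made up 11 of 129 intronic peaks in ALK, 15 of 52 in PTPRN2 and 11 of 35 in MED27. The highest site equalled the annotated end in ALK (21 and 21) and in TENM4 (17 and 17).

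The study centres on CDK12 and on genes of the DNA damage response. It reported early transcript ends in introns for many of these genes when CDK12 was inhibited. CDK12 had 9 intronic peaks and 0 sites, and its partner CCNK, cyclin K, had 1 intronic peak and 0 sites. CDK13 had 3 sites among 20 intronic peaks. One lay in intron 1 with a pileup of 14 and 2 in intron 5 with 12 each, beside an annotated end of 39. PCF11, a cleavage factor whose first intron is known for a poly(A) site through which it controls its own level, had 1 site, in intron 1 and 2.27 kb after the exon, with 14 against 24 at the annotated end. MYCN had 1 intronic peak and 0 sites.

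Of 28 homologous recombination and Fanconi genes, 14 (50%) had at least 1 site, 22 sites in all, against 29.9% of all coding genes with an annotated-end peak; the median length was 76.9 kb in the list and 33.4 kb in all. Pileups ranged from 5 to 16, with a median of 9, as over all genes. BRCA1, which directs repair by homologous recombination, had 1 site, with 14 against 26 at the annotated end. This site lay in the first intron of the longest transcript and before any coding base of the canonical transcript. Genes were taken here over all annotated transcripts. Whether the site lies within the other transcripts of BRCA1, or before their start, was not tested. BRIP1, the helicase that binds BRCA1, had 5 sites, the highest at 12 against 26. BARD1 and BLM had 12 intronic peaks each and 0 sites. The study reported early termination in both in neuroblastoma cells under THZ531, for BARD1 also by 3′ RACE. The rule leaves out peaks at annotated ends, with other hexamers or with A-rich sequence. A count of 0 sites therefore does not show that intronic cleavage was absent. Sites were 8.53% of the intronic peaks of the list, against 9.34% in all coding genes with an annotated-end peak.

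Of 17 damage checkpoint genes, 7 (41.2%) had 13 sites, against 29.9% of all coding genes with an annotated-end peak. The median pileup was 11 and the median gene length 49.8 kb. CLSPN, which helps activate CHK1, had 3, the highest with 24 against 28 at the annotated end and A-rich sequence in the last 10 bases. TP53BP1, which favours end joining, had 2, the higher with 12 against 31. ATM, the kinase that senses double-strand breaks, had 2 weak sites with pileups of 5 in intron 18 and 4 in intron 22, at −log10 q of 3.64 and 3.47, beside an annotated end of 17. The second of these had A-rich sequence in the last 10 bases before the end.

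Of 23 cleavage and polyadenylation genes, 14 (60.9%) had 20 sites, with a median pileup of 10.5 and a median gene length of 35.2 kb. Sites were 17.0% of the 118 intronic peaks of this list, against 9.3% over all coding genes with an annotated-end peak. Among those coding genes the share was 12.4% at 10 to 30 kb and 12.6% at 30 to 100 kb. CPSF6, a subunit of CFIm, had 3, the highest with 16 against 23 and after the last coding base of the canonical transcript. WDR33, the CPSF subunit that binds the hexamer, had 2, the higher with 32 in intron 1 of 21 and before any coding base, which passed the annotated end at 24. Of 23 transcription kinase and elongation factor genes, 7 (30.4%) had 12 sites, with AFF4, the scaffold of the super elongation complex, at 23 against 44. Of 28 U1 snRNP and splicing factor genes, 5 (17.9%) had 11 sites. PTBP2, the neuronal polypyrimidine tract binding protein, had 4, the highest at 15 against 14, CDC5L had 3, the highest at 8 against 20, and LUC7L2, a U1-associated factor, had the strongest of the list, with 39 against 86. Over all coding genes with an annotated-end peak, 29.9% had a site, a share close to the 30.4% of the elongation factor list. The lists differ in gene length, and their shares are a description.

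Of 14 adrenergic neuroblastoma genes, 5 (35.7%) had 16 sites, 11 of them in ALK. RET, a receptor tyrosine kinase, had 2, the higher with 30 in intron 6 of 19 against 46 at the annotated end. The other genes with a site were DBH and, named after their values were seen, GATA3, with 38 against 62, and LMO1, with 9 against 39. The median length of the 14 genes was 10.5 kb, and the share with a site over all coding genes with an annotated-end peak was 29.9%. Of 29 neuronal adhesion and synapse genes, with a median length of 1115 kb, 18 (62.1%) had 40 sites. Here sites were 2.45% of 1632 intronic peaks, the lowest share of the 7 lists, against 9.3% over all coding genes with an annotated-end peak. Among those coding genes the share was 3.64% above 1000 kb and 5.6% at 300 to 1000 kb. Of the 29 genes, 24 had such an end peak. NCAM1 and AUTS2 had 5 each, the highest at 8 and 13 beside annotated ends of 44 and 41. RBFOX1, a neuronal splicing regulator named here after its values were seen, had 261 intronic peaks and 0 sites.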

How the data were processed

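Poly(A) 3′-sequencing (QuantSeq 3′ REV) was done on 8 libraries. Per the methods and the submitters' processing notes, the authors trimmed reads, aligned them with STAR 2.5.1b to GRCh38 with spike-in sequences, and called peaks with MACS2 2.1.1 on merged reads, extended to 100 bp. The deposited peak list gives, per peak, a score, a fold ratio of summit pileup to local background, and −log10 p and −log10 q values. It has no strand and no value per library, and the depth per library is unknown.

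The pileup was recovered as a whole number from fold and −log10 p for 100.0% of peaks (−log10 p matched within 0.002). Genes and exons came from GENCODE 44 (all transcripts). The scripts (Python 3.11.15, NumPy 2.4.6, pandas 2.3.3, SciPy 1.17.1) were tested on simulated data. Shares carry 95% Wilson intervals and medians order-statistic intervals.

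The members, gene lists and alternatives were chosen with earlier results of these data known. Genes named were the 12 strongest sites, the 8 genes with most sites, the leading genes of each list, the genes the study centres on, and the 6 sites highest relative to an annotated end of at least 10. A gene and a sequence that this rule selects are not reported here.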

Additional observations from a re-analysis of the deposited data

How the results depend on the processing

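No paired analysis was possible because the peak list holds no value per library. The number of sites, 7435, was 16818 when A-rich sequence was required to be 25 A long, allowing 3 mismatches, and 1839 at a −log10 q of at least 10. The share with the hexamer 10 to 30 bases before the end was 66.8% and the share with GT-rich or T-rich sequence 26.9% with that A-rich definition, against 84.6% and 40.9%. At −log10 q of at least 10 these shares were 73.4% and 38.9%. The hexamer share was 87.1% with a window of 40 bases, 78.8% with 100, 81.5% with 12 motifs in place of 2, 86.2% when A-rich sequence was also sought in the last 10 bases before the end, and 82.6% at −log10 q of at least 5. The median pileup, 9, was 10 and 15 at −log10 q of at least 5 and 10. The share in the first intron, 23.5%, was 25.3% with the A-rich stretch, 24.9% at −log10 q of at least 10 and 21.6% with basic transcripts. The ratio to the annotated end, 39.3%, was 19.4% against the sum of all end peaks and 54.96% by fold enrichment. The cause of these shifts was not tested. Under the remaining 12 alternatives, 2 of which (no gene on the opposite strand, and single-copy sequence) were chosen after seeing the data, the number of sites lay between 5505 and 9463, and 3460 genes had a site at −log10 q of at least 5.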
